A study of Caenorhabditis elegans with 2 samples.

Results

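MicroRNA (miRNA) genes make short hairpin RNAs that are cut into regulators of messenger RNAs. All 261 nuclear genes of the miRNA biotype in the Ensembl annotation of the C. elegans assembly WBcel235 (the same assembly as ce11) were taken, out of 46890 annotated nuclear genes. Their median length was 95 bp, from 52 to 1732 bp. The data are chromatin immunoprecipitation with sequencing (ChIP-seq), which maps where a protein sits on DNA, from 1 group of 2 biological replicates of whole mid-embryos. The embryos were 3.5 hours old, synchronised by bleaching of eggs, and came from 1 strain, OP787. Both replicates carry the integrated transgene wgIs787, in which T27A8.2 is fused to TY1, EGFP and 3xFLAG tags (insertion p_wTRG5_insertion_c_0091_2H08) beside a working unc-119(+) copy, in the mutant background unc-119 (tm4063). An antibody against green fluorescent protein (GFP) was used. The labels name the target tab-1 while the genotype puts the tag on T27A8.2, and the samples are therefore called "labelled tab-1". The control experiment that the labels name was not used here. Whole embryos mix many cell types, so a peak does not say in which cells the protein was bound.

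In C. elegans a miRNA gene is transcribed into a primary transcript, Drosha with its partner PASH-1 cuts out the hairpin, and Dicer cuts the hairpin to a duplex, 1 strand of which is loaded into an Argonaute protein. The loaded strand pairs with messenger RNAs through its seed, and miRNAs that share a seed form a family. The mir-35 and mir-51 families are each known for redundant, essential roles in embryonic development, while lin-4 and let-7 are known for timing larval development.

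A site is a peak of the authors' conservative list of both replicates, with overlapping peaks merged, and a gene has a site when the peak summit lies within 200 bp of it. The strongest sites at miRNA genes were at mir-51 and mir-52, which share a seed with mir-53, mir-54, mir-55 and mir-56. The mature sequences of the family are shown because its genes lie at 3 separate places and their sites differ. Capitals mark the seed, bases 2 to 8. The sequences are RefSeq's on WBcel235. The mir-51 and mir-53 hairpins lie on the minus strand at chrIV:11026013-11026112 and chrIV:11027593-11027691, and mir-52 on the plus strand at chrIV:14034008-14034107. Those of mir-54 (chrX:13144996-13145094), mir-55 (chrX:13144827-13144924) and mir-56 (chrX:13144691-13144787) lie on the minus strand.
mir-51 5p arm: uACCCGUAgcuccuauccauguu
mir-52 5p arm: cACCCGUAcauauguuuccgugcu
mir-53 5p arm: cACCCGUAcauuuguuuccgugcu
mir-54 3p arm: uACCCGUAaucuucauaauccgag
mir-55 3p arm: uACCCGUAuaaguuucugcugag
mir-56 3p arm: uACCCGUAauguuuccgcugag
The seed ACCCGUA is carried by these 6 genes and by no other mature sequence of the 257 miRNA genes with one in RefSeq. It sits on the 5p arm in mir-51 to mir-53 and on the 3p arm in mir-54 to mir-56.

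The DNA at the summits of mir-52 and of the mir-61 and mir-250 pair shows how close a site can lie to the hairpin. Each window is the summit base with 100 bp to each side, read on the strand of the gene. Capitals mark bases of an annotated hairpin. The first is chrIV:14033859-14034059 on the plus strand and the second is chrV:11769990-11770190 on the minus strand.
mir-52 summit: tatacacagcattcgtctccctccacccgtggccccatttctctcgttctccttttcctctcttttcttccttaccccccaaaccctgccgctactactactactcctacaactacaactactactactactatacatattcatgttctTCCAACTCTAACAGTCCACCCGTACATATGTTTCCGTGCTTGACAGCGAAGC
mir-61 summit: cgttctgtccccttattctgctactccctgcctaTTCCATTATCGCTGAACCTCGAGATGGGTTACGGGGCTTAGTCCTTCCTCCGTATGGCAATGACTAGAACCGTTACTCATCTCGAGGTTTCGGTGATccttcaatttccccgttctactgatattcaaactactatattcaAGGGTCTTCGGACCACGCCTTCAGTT
The mir-52 window holds the first 52 bases of its hairpin, and the mir-61 window holds 123 hairpin bases of mir-61 and mir-250 together.

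Windows at mir-51, mir-4936 and mir-4930 are shown for words in them. In the first and second, capitals mark a match to GGTTCGANNCC, the letters of the B box, an internal promoter element of tRNA genes that RNA polymerase III reads. In the window of mir-4930, capitals mark CTAGGG. The windows are chrIV:11026106-11026306 (minus strand), chrIII:3249132-3249332 (plus strand) and chrIV:2398427-2398627 (plus strand).
mir-51 summit: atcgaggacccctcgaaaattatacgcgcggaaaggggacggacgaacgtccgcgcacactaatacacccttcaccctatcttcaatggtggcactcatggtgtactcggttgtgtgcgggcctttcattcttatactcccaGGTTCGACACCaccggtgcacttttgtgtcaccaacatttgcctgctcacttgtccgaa
mir-4936 summit: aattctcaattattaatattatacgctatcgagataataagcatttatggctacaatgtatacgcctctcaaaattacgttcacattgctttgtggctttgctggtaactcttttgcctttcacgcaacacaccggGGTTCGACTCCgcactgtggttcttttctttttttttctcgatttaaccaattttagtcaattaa
mir-4930 summit: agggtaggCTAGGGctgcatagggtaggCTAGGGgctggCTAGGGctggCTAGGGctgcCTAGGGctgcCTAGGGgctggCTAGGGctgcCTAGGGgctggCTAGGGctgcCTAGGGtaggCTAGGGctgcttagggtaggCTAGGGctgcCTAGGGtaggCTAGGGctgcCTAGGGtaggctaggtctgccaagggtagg

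Sites lay at few miRNA genes. Of the 261 genes, 11 had a site (4.21%, 95% Wilson interval 2.37 to 7.39, which covers only counting error over genes taken as independent). This share was close to the 3.33% of all nuclear genes and to the 5.06% of the 7764 genes of the ncRNA biotype, whose median length of 140.0 bp is nearer to that of miRNA genes than that of most genes. It lay below the 44.3% of 612 tRNA genes and the 17.9% of 346 snoRNA genes. The 11 genes were served by 10 of the 1266 sites (0.79%), because mir-61 and mir-250 shared one. Genes that share a site are not independent, which the interval leaves out of account. Replicate 1's own thresholded list alone gave 4 genes and replicate 2's gave 9, of which 2 and 4 were among the 11. A further 22 genes had their nearest summit over 200 and up to 1000 bp away, from 10 further sites, and 228 genes lay beyond 1000 bp of any site. Within 1000 bp the count was thus 33 genes (12.6%), against 5.34% of all nuclear genes and 7.88% of ncRNA genes. The shares of all nuclear genes include the 19704 genes of chromosome IV, of which 1.1% had a site within 200 bp. On the other chromosomes that share was 2.82 to 6.36%. The differences were not tested.

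Neighbouring miRNA genes share sites, so genes were also counted by cluster. Same-strand genes with at most 10 kb between neighbours formed 29 clusters of 81 genes, the largest with 11, and 180 genes stood alone. A site was found at 3 clusters (mir-51 with mir-53, mir-61 with mir-250, and mir-2 with mir-71) and at 7 single genes, 10 of 209 units (4.78%). Within 1000 bp the count was 8 clusters and 13 single genes, 21 of 209 units (10%). The 7 genes mir-35 to mir-41 accounted for 7 of the 33 genes within 1000 bp through 1 site.

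The replicates can be compared at each site through their own ranked lists of candidates. Every signal below is in the authors' units, whose scale is not stated, and serves only to rank and describe peaks within a list. The median signal of the 10 miRNA sites was 90.1 (65.9 to 679), beside 95.3 over all 1266 sites (28.7 to 1129). Both replicates' own thresholded lists held 2 of the 10 sites (20%), beside 28.3% of all sites, and neither list held 6 of the 10 (60%), beside 48.7%. Replicate 1's own list held 2 of the 10 and replicate 2's own list 4.

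**Figure D1:**
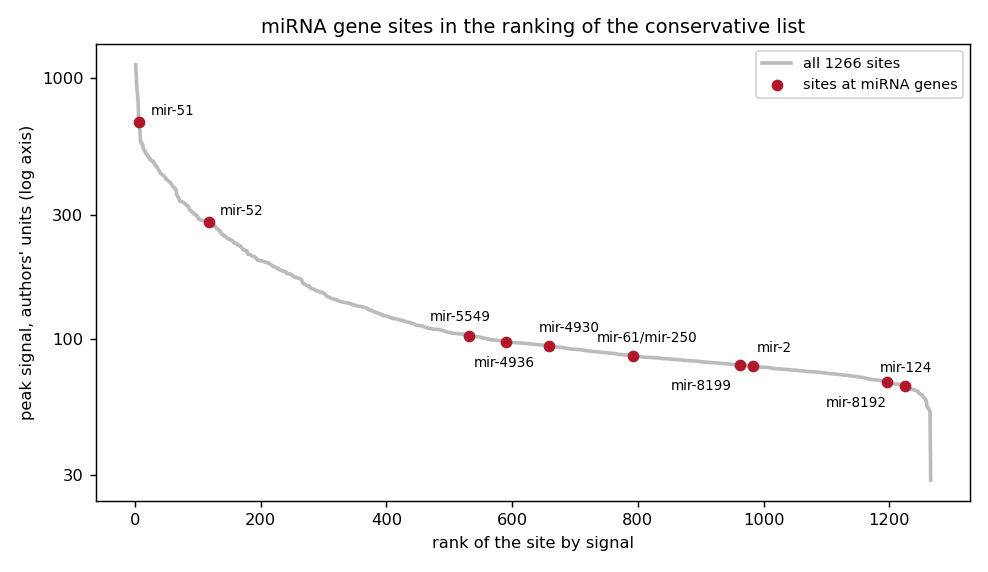
Signal of all 1266 sites of the conservative list (grey line; vertical axis, authors' units, log axis) by rank (horizontal axis), with the 10 sites at miRNA genes as red points. The sites at mir-51 (signal 679, rank 7) and mir-52 (279.9, rank 117) stand high in the ranking, and the other 8 lie at 103 or lower.

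The site at mir-51 was the 7th strongest of the list. It spanned chrIV:11025895-11026348, with its summit 94 bp upstream of the hairpin, and had a signal of 679. Replicate 1 gave 264 there and replicate 2 gave 365, and both own thresholded lists held it. The mir-51 gene lies between protein-coding genes, and the summit lay 2979 bp from the nearest 5′ end, that of hrg-5. The summit also lay inside F36H1.17, an annotated ncRNA gene on the same strand, so the peak cannot be assigned to either RNA gene. mir-53, 1387 bp upstream of the same summit and in the same cluster, had only a candidate of signal 65.4, with 21.5 in replicate 1 and 33.9 in replicate 2.

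The site at mir-52 spanned chrIV:14033795-14034125, with its summit 49 bp upstream of the hairpin, and ranked 117 with a signal of 279.9. Replicate 1 gave 112 and replicate 2 gave 154, and both own lists held it. Its summit lay inside annotated ncRNA genes on both strands and 93 bp from a further one on the minus strand, so that it too cannot be assigned to 1 RNA gene. In both replicates mir-51 and mir-52 were thus the highest of the 10 sites, and mir-51 was above mir-52.

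The third place of the family, the cluster of mir-54, mir-55 and mir-56 on the X chromosome, had no site in the conservative list by the 200 bp rule. The nearest site of that list (signal 90.9, with 44 in replicate 1 and 41.7 in replicate 2) lay 354 bp downstream of mir-56. The mir-56 gene itself lies in an intron of F09A5.3, which is on the opposite strand. A stronger candidate of signal 143 lay 166 bp upstream of mir-54, at rank 391 of the ranked candidates. Both replicates' own thresholded lists held a peak within 200 bp of mir-54, with 71.1 in replicate 1 and 56.5 in replicate 2, as did the other thresholded list of both replicates, at rank 312. Its irreproducible discovery rate (IDR), which estimates how far peaks fail to rank alike in 2 sets, was 0.247 in the ranked list behind the conservative list and 0.000519 in the other. Replicate 2's own thresholded list held overlapping peaks there, of 56.5 (summit at chrX:13145154) and 16.9 (summit at chrX:13145354), where replicate 1 had 1 peak. Whether the split bears on the IDR was not tested.

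**Figure D2:**
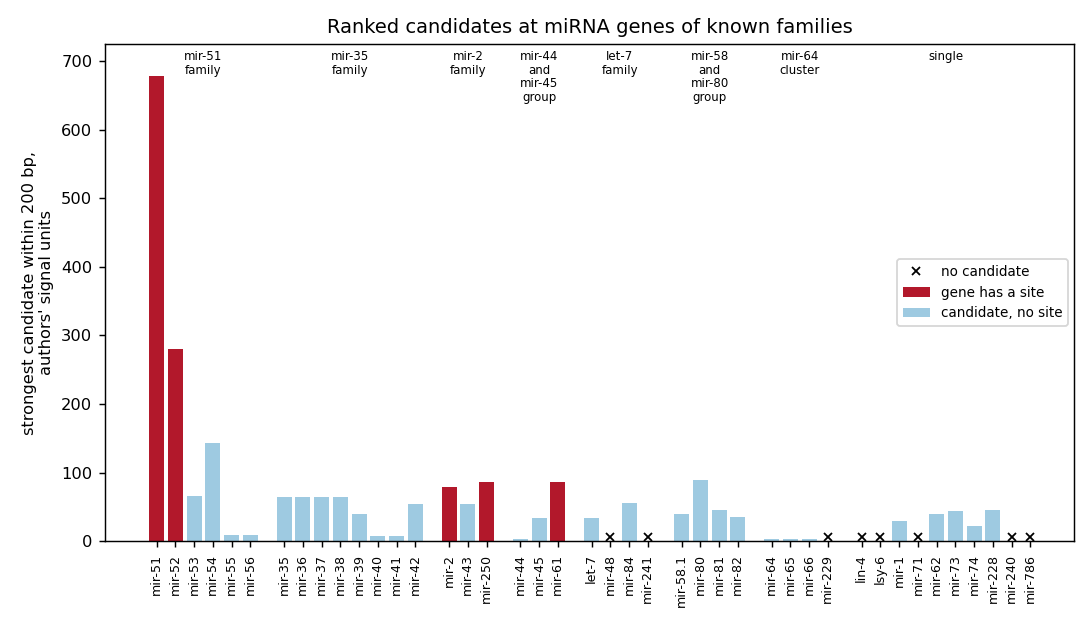
Strongest ranked candidate within 200 bp (vertical axis, authors' signal units) at miRNA genes of named families and at single named genes (horizontal axis). Red bars are genes with a site, blue bars have a candidate and no site, and crosses mark genes with no candidate. mir-51 (679) and mir-52 (279.9) stand above the candidate at mir-54 (143) and all others shown.

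The next sites by signal were at less studied genes. At mir-5549 the summit lay 52 bp upstream (chrIII:6971985-6972288; signal 103; 46 in replicate 1 and 66.4 in replicate 2). It also lay in the promoter windows, from 1000 bp before to 200 bp after a 5′ end, of eef-1A.1, which encodes a translation elongation factor, and rfc-4, a subunit of the clamp loader of DNA replication. At mir-4936 the summit lay inside the gene (chrIII:3249080-3249383, signal 97.7, with 50.8 and 64.8) and in the promoter window of nduf-9. The nearest 5′ end, that of Y53G8AL.4, was 260 bp from this summit, but the promoter window of that gene did not hold it. Replicate 2's own thresholded list held both sites and replicate 1's held neither. At mir-4930, which lies in an intron of Y38F2AR.10 on the opposite strand, the summit lay 125 bp upstream (chrIV:2398375-2398678, signal 93.9). There replicate 1 was higher, with 51.5 against 30.5, and neither own list held the site.

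mir-61 and mir-250 shared the site at chrV:11769938-11770241, with a signal of 86.2, 44.3 in replicate 1 and 31.5 in replicate 2. Its summit lay inside mir-61 and 75 bp upstream of mir-250, in the promoter window of F55A11.4. mir-61 is known for its part in vulval cell fate. Its 3p seed, GACUAGA, is shared with mir-44, mir-45 and mir-247. The 3p seed of mir-250, AUCACAG, is shared with mir-2, mir-43 and mir-797. At mir-2, in an intron of ppfr-1, the summit lay 179 bp upstream with a signal of 78.5, 44.1 in replicate 1 and 35.4 in replicate 2. Of the 4 genes that share AUCACAG, mir-2 and mir-250 thus had a site, while of the 4 that share GACUAGA only mir-61 did. No own thresholded list held the sites at mir-61 or mir-2.

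The remaining sites were low in the ranking. The site at mir-8199 (chrII:2137265-2137568; signal 79.5) held a candidate of 41.5 in replicate 2 and none in replicate 1, and it was the only one of the 10 missing from the other thresholded list. Its summit lay 5 bp from the 5′ end of C40A11.4 and 508 bp from the mir-8199 hairpin, whose annotated gene is longer than the hairpin. By the hairpin alone, a count added after the data were seen, 10 genes had a site. At mir-8192 (chrII:6943748-6944051, signal 68.4) replicate 1 gave 34.4 and replicate 2 gave 41.7. The summit, at chrII:6943900, lay inside the gene, in an intron and in the promoter window of flcn-1, the folliculin homologue. It lay before the hairpin, whose 5p arm begins at chrII:6943941, because this annotated gene too is longer than its hairpin. mir-124, known for its expression in sensory neurons, lies in an intron of the ion channel gene trpa-1. The summit of its site (chrIV:11871867-11872170, signal 65.9, with 36.1 in replicate 1 and 42.1 in replicate 2) lay 186 bp downstream. The ncRNA gene C29E6.11 was 81 bp from that summit. No own list held the sites at mir-8192 or mir-124.

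**Figure D3:**
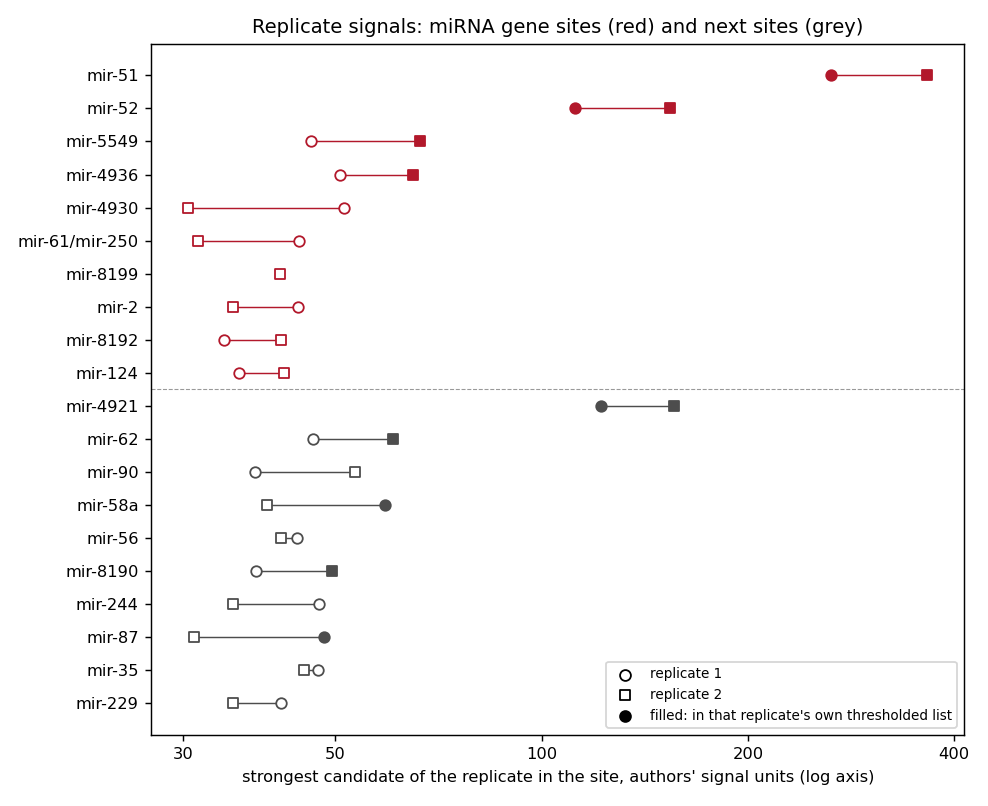
Strongest candidate of replicate 1 (circles) and replicate 2 (squares) inside each site (horizontal axis, authors' signal units, log axis) for the 10 sites at miRNA genes (red) and the 10 next sites, named by their nearest gene (grey). Filled symbols are in that replicate's own thresholded list. Only mir-51, mir-52 and mir-4921 have both symbols filled.

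Between the replicates the order was not uniform. Replicate 2 was higher at 6 of the 9 miRNA sites with a value in both, with a median ratio of replicate 2 to replicate 1 of 1.21 (0.593 to 1.44), beside 1.04 over all sites. The sites at mir-4930, mir-61 and mir-2 were higher in replicate 1. The scale of the signal in each list is unknown, so the ratio is no measure of binding.

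The sites just outside the window lay 258 to 884 bp from a miRNA gene. The strongest, 833 bp downstream of mir-4921 in the 11-gene cluster on the X chromosome, had a signal of 299 at rank 96 (122 in replicate 1 and 156 in replicate 2). Its summit lay on the tRNA gene Y59E1B.t2 and inside the ncRNA gene Y59E1B.5. At mir-62 a site of 110.0 (46.4 and 60.6) lay 524 bp upstream, 224 bp from the 5′ end of its host ugt-50, a glucuronosyltransferase gene. At mir-90, which lies in an intron of K01F9.2, a site of 98.4 (38.2 and 53.4) lay 310 bp upstream. mir-90 is the first gene of a cluster with mir-238 and mir-80. mir-58.1, called mir-58a by Ensembl, lies in an intron of phkb-1. A site of 93 (59 in replicate 1 and 39.7 in replicate 2) lay 264 bp upstream of mir-58.1. The ncRNA gene Y67D8A.6 was 172 bp from that summit. At mir-87, which lies in an intron of kup-1, a site of 74.3 (48.1 and 31.1) lay 284 bp upstream. Its summit was inside the ncRNA gene F10C2.11. On chromosome I a site of 90.1 lay 884 bp upstream of mir-8190 and one of 80.2 lay 558 bp downstream of mir-244, inside the lincRNA gene linc-39.

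Upstream sites also stood before the first genes of the mir-35 and mir-229 clusters. The mir-35 to mir-41 cluster had its site (chrII:11537198-11537501; signal 72.8; 47.1 in replicate 1 and 45 in replicate 2) 258 bp upstream of mir-35, and 2 of its genes, mir-36 and mir-37, lay within 500 bp of it beside mir-35. The ncRNA gene Y62F5A.16 lay 177 bp from that summit. These genes and mir-42 carry the seed CACCGGG on their 3p arms. A candidate of 63.7 with an IDR of 0.024 had its summit inside mir-36 and within 200 bp of mir-35, mir-37 and mir-38. Replicate 2 had a candidate of 44.3 at the same summit, which its own thresholded list held. The candidate of replicate 1, with 28.8, had its summit inside mir-38, 135 bp beyond mir-36, and none of its candidates lay within 200 bp of mir-35. The mir-229, mir-64, mir-65 and mir-66 cluster, in an intron of gcn-1, had a site of 63.9 (41.7 and 35.4) 426 bp upstream of mir-229. The window of that site held ACACAC 23 times, with overlaps counted. No own thresholded list held this site or the one upstream of mir-35, and neither did the other thresholded list of both replicates.

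**Figure D4:**
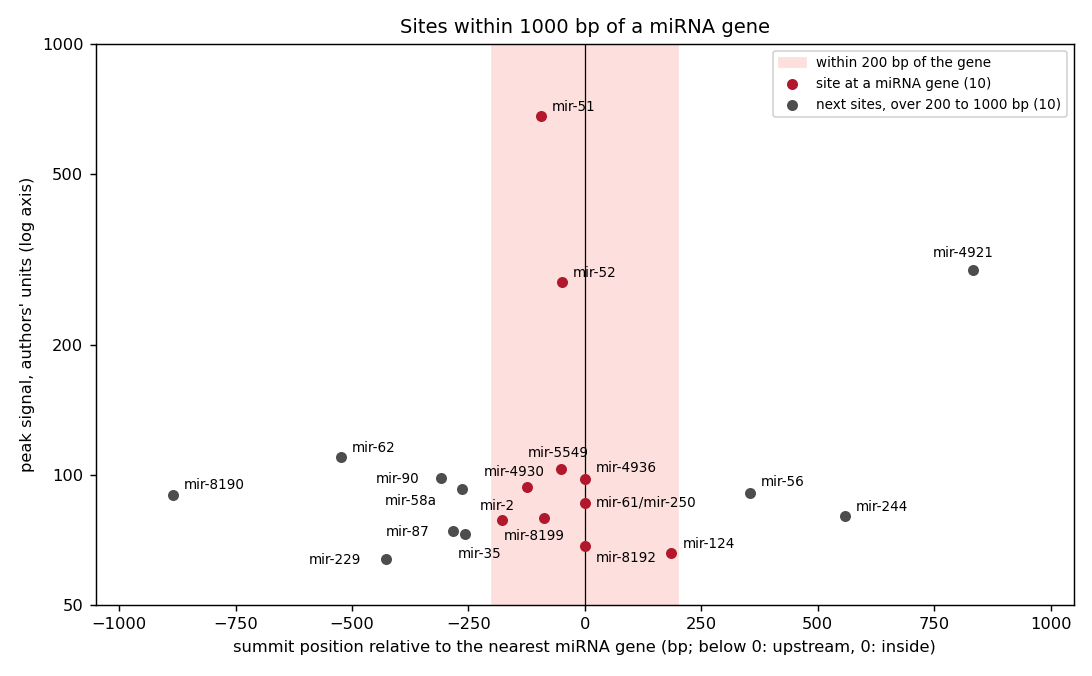
Signal (vertical axis, authors' units, log axis) of the 20 sites within 1000 bp of a miRNA gene against the summit's position relative to the nearest miRNA gene (horizontal axis, bp, negative upstream). Red points lie within 200 bp (shaded) and grey points beyond it, up to 1000 bp. Of the 20 summits, 13 lie upstream, 3 inside and 4 downstream.

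Most summits lay on the upstream side. Of the 20 sites within 1000 bp, 13 (65%) lay upstream of the nearest miRNA gene, 3 inside it and 4 (20%) downstream. Within 200 bp the counts were 6, 3 and 1. The count inside refers to the annotated gene, and at mir-8192 the summit lay before the hairpin. For comparison, 85.1% of the sites within 1000 bp of a snoRNA gene lay upstream and 5.41% downstream, 14.9% of those of a tRNA gene lay upstream, and the ncRNA genes had 22.4% upstream and 22% downstream. Gene lengths differ between these classes, so the shares are not on 1 footing.

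Sites were also counted by host gene, which is a place and not a partner. Of the 152 miRNA genes between protein-coding genes, 7 had a site (4.61%), beside 3 of 68 in a same-strand intron (4.41%) and 1 of 31 in an opposite-strand intron. None of the 8 genes in a same-strand exon or the 2 in an opposite-strand exon had one. Beyond 200 and up to 1000 bp the counts were 3, 8 and 11, where the mir-35 cluster gave 7 of the 11. Of the 10 sites at miRNA genes, 5 lay in a promoter window of a protein-coding gene, beside 38.6% of all sites, and 3 (mir-51, mir-52 and mir-124) had another RNA gene within 200 bp of the summit, beside 38.2%. With 10 sites, neither count is read as a difference. By chromosome, 1 of 33 miRNA genes had a site on I, 2 of 49 on II, 2 of 27 on III, 4 of 50 on IV and 2 of 28 on V. Of all genes, the share was 6.28% on I, 4.82% on II, 5.8% on III, 1.1% on IV, which holds most piRNA genes, and 2.82% on V. The X chromosome, with the largest number of miRNA genes, had 0 of 74, beside 6.36% of all its genes. A rough upper limit for 0 of 74 is 3 of 74 (4.05%). This limit takes the genes as independent, although 11 of them form 1 cluster, so it decides nothing about the difference. The difference from all genes of the chromosome was not tested. Of its miRNA genes, 7 lay over 200 and up to 1000 bp from a site.

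Candidates of the ranked list, which are mostly weak, lay at about as many miRNA genes as other genes. A candidate lay within 200 bp of 136 miRNA genes (52.1%), beside 46.3% of all nuclear genes and 60% of ncRNA genes, and 125 had none. The median of the strongest candidate per gene was 34.4, beside 24.4 over all 95098 candidates. Taking the strongest of several raises the first median. Replicate 1's own ranked list had a candidate at 108 of the genes and replicate 2's at 114, with 68 in both. With the IDR at most 0.05, 19 genes had a candidate (7.28%), beside 7.13% of all nuclear genes. Every peak of the conservative list is in this ranked list, so the next count is no separate result. No gene without a site had a candidate past the score of the 0.01 threshold.

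Named genes with known roles differed in their candidates. Among the let-7 family, let-7 had a candidate of 34.3 (26.7 in replicate 1 and 11.1 in replicate 2) and mir-84 one of 55.5 (23.2 and 22.6), while mir-48 and mir-241 had none in the ranked list of both replicates. In replicate 2's own ranked list mir-48 had a candidate of 26.6 and in replicate 1's none, and mir-241 had none in either. mir-795, which shares the seed of these genes, had none in the ranked list of both replicates. It had one of 24.9 in replicate 1's own list and none in replicate 2's. No candidate lay at lin-4, at lsy-6, which sets the left-right asymmetry of a pair of taste neurons, or at mir-71, mir-240 and mir-786, though mir-71 had one of 12.6 in replicate 2's own list. At mir-1, expressed in muscle, the candidate was 29.4. Of the group of mir-58.1, mir-80, mir-81 and mir-82, mir-80 had the highest candidate, 89.6, with an IDR of 0.0131, 56.6 in replicate 1 and none within 200 bp in replicate 2. The others had 39.3, 46.1 and 35.7. mir-73 (44), mir-74 (22.7), mir-228 (45.3), mir-42 and mir-43 (53.8 each, a shared candidate), mir-45 (34.5) and mir-44 (2.71) had candidates and no site. In the clusters already described, the candidates of mir-55 and mir-56 (9.54), mir-40 and mir-41 (6.9) and mir-64, mir-65 and mir-66 (3.54) were shared and weak, mir-39 had 39.8, and mir-229 had none. The candidate within 200 bp of mir-62 was 39.5. Among the 10 genes with the highest candidates and no site, those not yet named were mir-354 (69.4), mir-2211 (63.9) and mir-72 (63.3).

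Short words were searched, on either strand, in the window of each summit. GTTCGA, the core of the B box, was in 2 of the 10 windows at miRNA genes (mir-51 and mir-4936), beside 22.1% of all windows. GAGAGA was in 3 of the 10, beside 25.7%. TAATTA, a core bound by many homeodomain proteins, GCGCGC and CACGTG were in 0 of the 10, beside 4.74%, 11.7% and 4.27%. In the next 10 windows GAGAGA was in 6 and GCGCGC in 3. The differences from the shares over all windows were not tested.

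The longer word GGTTCGANNCC, the consensus around GTTCGA in 442 annotated tRNA genes (letters in at least 80% of them), chosen after the windows had been read, was in the same 2 windows. It began 42 bp after the summit at mir-51, as GGTTCGACACC, and 36 bp after it at mir-4936, as GGTTCGACTCC, both on the strand of the miRNA. Of all 1266 windows 14.5% held it, 63.2% of the 250 at tRNA genes and 2.46% of the 1016 away from tRNA genes. Neither miRNA site has a tRNA gene within 200 bp. Around the centres of the 261 miRNA genes, 3 windows (1.15%) held it. The mir-4930 window held CTAGGG, a word also chosen after the windows had been read, 15 times, and 3.55% of all windows held it at least once. A match is a description of letters, not of a bound factor.

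Promoters were also looked at for a list of protein-coding genes tied to miRNAs. It holds the pathway's own proteins and general RNA genes such as xrn-1 and pab-1. Developmental timing genes such as lin-14, lin-28 and lin-41 are also on it, so shares over it are not of the pathway alone. Of 32 listed genes 31 were matched, and 5 had a site in the promoter window (16.1%), beside 2.97% of 19973 protein-coding genes. These were vig-1, a part of the silencing complex (signal 112; 32.1 in replicate 1 and 72.1 in replicate 2), and the Argonaute genes alg-5 (97.7; 48.7 and 45.7) and alg-2 (82.6; 44.5 and 36.7). The others were cgh-1, a helicase of RNA granules (72.6; 40.8 and 32.4), and lin-42, the Period homologue that acts on miRNA transcription (72.2; 46.2 and 34.6). A ranked candidate of any strength was in 26 of the 31 promoter windows, beside 64.3% of those of all protein-coding genes. Neither difference was tested, and the list was chosen with earlier results of these data known. With 5 genes, the share with a site is not read as a difference. drsh-1 (Drosha), pash-1 and dcr-1 (Dicer), which act in the cutting steps, had no site, and neither did the Argonaute gene alg-1, whose strongest promoter candidate was 82.6.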

How the data were processed

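The deposited files were peak lists on ce11, per the labels, for each replicate and for both together, as ranked candidates and as lists past an IDR threshold. Per-peak signal values are as deposited by the authors, and their scale is not stated. In the deposited lists a lower IDR has a higher score (830 at an IDR of 0.01), and a further deposited column of the ranked lists holds the −log10 of the global IDR, as read from the values. Aligner, peak caller and versions: not given in the sources used here. The read depth is unknown. A control experiment was not used here.

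Overlapping peaks (at least 1 bp) were merged into sites that keep the strongest peak's signal and summit. Genes and hairpins came from Ensembl release 115, mature sequences from RefSeq, both on WBcel235, and no peak ended beyond a chromosome. Replicate signals are the strongest candidate of each replicate's own ranked list in the site. Named genes were those with a site, those within 1000 bp, the 10 highest candidates without a site, and a list of known miRNAs. Of the list of protein-coding genes tied to miRNAs, ntl-1 was not matched. Members, lists and words were chosen with earlier results of these data known. Since there is 1 group and no control, no test between groups was made and counts stand beside the same count over all genes. The alternatives were other distances, lists, replicates, thresholds, cluster gaps and merging. The assignment of summits to genes was tested on simulated data. Python 3.11.15 with scipy 1.17.1 and matplotlib 3.10.9 was used.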

Additional observations from a re-analysis of the deposited data

How the results depend on the processing

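The main counts were 11 miRNA genes, 10 sites with a median signal of 90.1, 10 units with a site and 136 genes with a candidate. By distance, with the summit inside the gene 3 genes and 3 sites were left (median 86.2), at 500 bp there were 21 genes and 16 sites, and at 1000 bp 33 genes and 20 sites. A global IDR of at most 0.001 left 2 genes and 2 sites, mir-51 and mir-52, with a median of 479.7. Candidates with an IDR of at most 0.05 lay at 19 genes. The median was 97.7 at 100 bp, 95.8 by overlap of the whole peak, 93.9 in the other thresholded list and 86.2 without sites that have another RNA gene at the summit. Leaving out a replicate gave 4 to 9 genes, 4 to 6 sites, a median of 65.6 to 91.6 and 108 to 114 genes with a candidate. Replicate 2's own list shared 4 genes with the conservative list and replicate 1's shared 2, mir-51 and mir-52, and each own list also held mir-54. The other thresholded list had 12 genes, gaining mir-54 and mir-80 and losing mir-8199. The remaining alternatives, among them cluster gaps of 3 and 50 kb and joining neighbours on either strand, stayed within 1.5 times the main counts. Of the 11 genes, only mir-51 and mir-52 were kept by the strict IDR and by both own lists; both are lost when the summit must lie inside the gene and when sites with another RNA gene are left out, which leaves 8 genes at 7 sites. The cause of these shifts was not tested. No paired analysis was possible because there is 1 group. Read depth is unknown, so a gene with no site may be one not detectable here.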
